A study of Mus musculus with 6 samples.

Results

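The genes described here belong to the unfolded protein response and the linked ATF4 stress response. They were listed by function, 24 for chaperones, folding enzymes, degradation factors and sensors of the endoplasmic reticulum (ER) and 14 for ATF4 and its targets. A probe set naming a single gene was found for 37 of the 38, all 24 ER genes and 13 of the ATF4 group, out of 19938 genes measured. The probe set of *Aars* names several genes and was not used. Where a gene had more than 1 probe set, the brightest on average across all 6 arrays stood for it.

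The arrays measured RNA from esophageal epithelium of 6 mice aged 3 months, each mouse on 1 array. The 3 control mice were Klf4 loxp/loxp, with both copies of *Klf4* floxed, and lacked Cre. The 3 mutant mice, sex-matched to them within litters, carried the same floxed gene together with ED-L2-Cre, a transgene whose promoter works in squamous epithelia and is therefore not specific to 1 layer or to the esophagus. All were of mixed genetic background. In each genotype replicate 1 was male and replicates 2 and 3 were female. Values are on a log2 scale, so a difference of 1 is a doubling of signal, and errors of differences are moderated standard errors (SE) from limma. A gene is said to have risen or fallen where its limma p, adjusted by Benjamini-Hochberg over all 19938 genes, was under 0.05.

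*Klf4* itself read 9.75, 10.15 and 10.06 on the control arrays and 10.28, 10.50 and 10.28 on the arrays labelled mutant (0.37 ± 0.13, adjusted p = 0.314). The targeted gene thus gave no lower signal where it should be deleted. The sources used here do not say which part of the gene these probes read, and probes lying outside the deleted stretch would not test the deletion. All directions below rest on the labels. Markers of squamous epithelium were strong on every array, with *Krt13* between 13.65 and 13.87, and their score lay between -0.09 and 0.13. All 21 fibroblast markers averaged lower in the group labelled mutant, with scores (explained below) of 0.04, 0.57 and 0.70 on controls 1 to 3 and between -0.49 and -0.34 on the mutants. Skeletal muscle markers ranged most, from -2.30 on control 1 to 2.30 on control 2. In whole tissue, fewer cells of a type and less RNA per cell cannot be told apart.

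Secreted and membrane proteins fold in the ER with the help of chaperones and of enzymes that form their disulfide bonds. When unfolded protein builds up, the membrane sensors encoded by *Ern1*, *Atf6* and *Eif2ak3* respond. The product of *Ern1* splices the messenger of the transcription factor *Xbp1*, ATF6 is cut to release a transcription factor, and PERK, the product of *Eif2ak3*, phosphorylates the initiation factor eIF2. The first 2 of these arms induce chaperones and degradation factors. Phosphorylated eIF2 slows translation in general but favours translation of ATF4, which turns on genes of amino acid synthesis, transport and stress. Kinases that sense other stresses, such as shortage of amino acids, feed into ATF4 as well. Splicing, cleavage and phosphorylation are not read by these arrays.

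Many ER chaperone genes are induced through a shared promoter element. Promoters of the first 4 members in list order that hold it are shown. Members with and without the element were alike in being highest on mutant 1, as counted below. The ER stress element (ERSE) was searched as CCAAT and CCACG with 9 bases between them, on both strands of the 250 bases before the start. It was found in 8 of 21 ER genes with a window (38.1%), namely *Hspa5*, *Hsp90b1*, *Calr*, *Canx*, *Pdia6*, *Dnajc3*, *Creld2* and *Syvn1*. Among all 27025 genes with a window, 35 held it (0.13%), and none of the 13 ATF4 genes did. The related ERSE-II (ATTGG and CCACG with 1 base between) was found in *Herpud1* and in 0.037% of all genes. The UPRE core TGACGTGG was in no member's window and in 0.603% of all. *Hyou1*, *Manf* and *Atf6* had no window. Sequences are from RefSeq, build GRCm38.p6, written 5′ to 3′ along the gene's strand, with each ERSE in capitals. They lie at chr2:34772005-34772063 (plus strand, *Hspa5*), chr10:86705513-86705676 (minus, *Hsp90b1*), chr8:84847055-84847113 (minus, *Calr*) and chr11:50325780-50325838 (minus, *Canx*).
Hspa5: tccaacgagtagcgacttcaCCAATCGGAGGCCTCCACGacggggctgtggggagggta
Hsp90b1: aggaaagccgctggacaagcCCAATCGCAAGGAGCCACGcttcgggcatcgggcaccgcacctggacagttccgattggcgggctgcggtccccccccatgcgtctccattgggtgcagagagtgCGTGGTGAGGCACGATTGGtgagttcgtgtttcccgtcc
Calr: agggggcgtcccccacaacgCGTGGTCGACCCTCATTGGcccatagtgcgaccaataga
Canx: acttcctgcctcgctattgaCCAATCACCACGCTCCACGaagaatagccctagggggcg
The element stands on the plus strand of the gene in *Hspa5* and *Canx*, on the minus strand in *Calr*, and once on each in *Hsp90b1*.

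ATF4 acts through a different element, and the promoters of the first 4 ATF4 genes in list order that hold it are shown for comparison, since their genes differed in direction. The C/EBP-ATF element was searched as TGATGNAA on both strands and was found in 5 of 13 ATF4 genes (38.5%), namely *Atf3*, *Chac1*, *Asns*, *Nupr1* and *Vldlr*. It was in 1056 of all 27025 genes (3.91%) and, among the ER genes, in *Herpud1* alone of 21. These windows lie at chr1:191183416-191183463 (minus, *Atf3*), chr2:119351029-119351076 (plus, *Chac1*), chr6:7693210-7693252 (minus, *Asns*) and chr7:126625553-126625600 (minus, *Nupr1*) of the same build, with the element in capitals.
Atf3: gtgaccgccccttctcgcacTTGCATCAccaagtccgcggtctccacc
Chac1: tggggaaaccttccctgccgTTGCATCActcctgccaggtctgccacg
Asns: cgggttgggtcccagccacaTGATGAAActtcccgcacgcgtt
Nupr1: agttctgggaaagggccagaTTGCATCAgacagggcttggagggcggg
Only the *Asns* copy reads along the gene's strand, and the other 3 are on the opposite strand. A match of letters is a description and shows neither binding nor regulation.

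The ER genes were summarised per array by a score, the mean over the 24 genes of the log2 value less that gene's mean over the 6 arrays. Controls 1 to 3 scored 0.00, -0.34 and -0.33, and mutants 1 to 3 scored 0.79, -0.03 and -0.09. Mutant 1, the male, stood far above all other arrays. The male control stood above the female controls and slightly above both female mutants, so the groups overlapped. Within each sex, every mutant scored above every control. Group means were -0.22 ± 0.19 and 0.22 ± 0.49 (SD, n = 3 each), a difference of 0.44. All 24 genes had a higher mean on the arrays labelled mutant, with a median difference of 0.48, where 55.5% of all genes did and the median of all genes was 0.02. None of the 24 passed the test in limma, where 0.366% of all genes were called higher and 0.672% lower. At an unadjusted p under 0.05 there were 6 of the 24, against 5.79% of all genes in that direction. With sex as a covariate, or with the replicate number as a block in place of sex, there were 15 of the 24, and none passed. The share of all genes at that unadjusted p was not counted in those fits, so the rise has no background beside it. After adjustment, 180 and 81 of all 19938 genes were called in them. The median of the 24 fell to 0.15 without mutant 1, with 20 genes above 0 and 4 below, beside 56.9% of all genes above 0. It was 0.29 in the females alone, with 23 above 0, beside 57.9% of all genes.

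**Figure D1:**
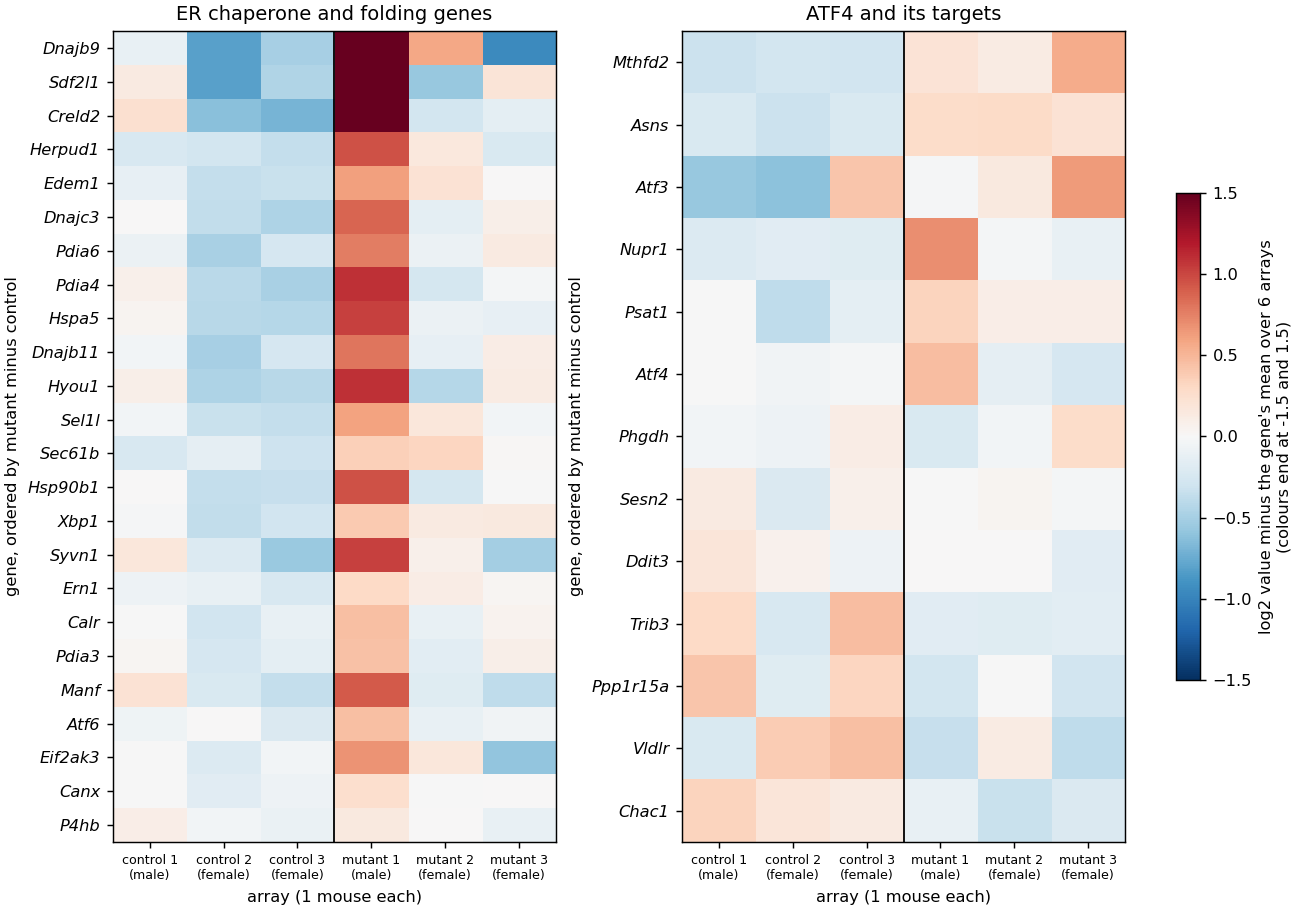
Heat map of the 24 ER genes (left) and 13 ATF4 genes (right), 1 column per array, coloured by the log2 value less the gene's mean over 6 arrays, with colours ending at -1.5 and 1.5 and genes ordered by mutant minus control. The column of mutant 1 is red in all 24 ER rows, while the ATF4 rows show red and blue on both sides.

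**Figure D2:**
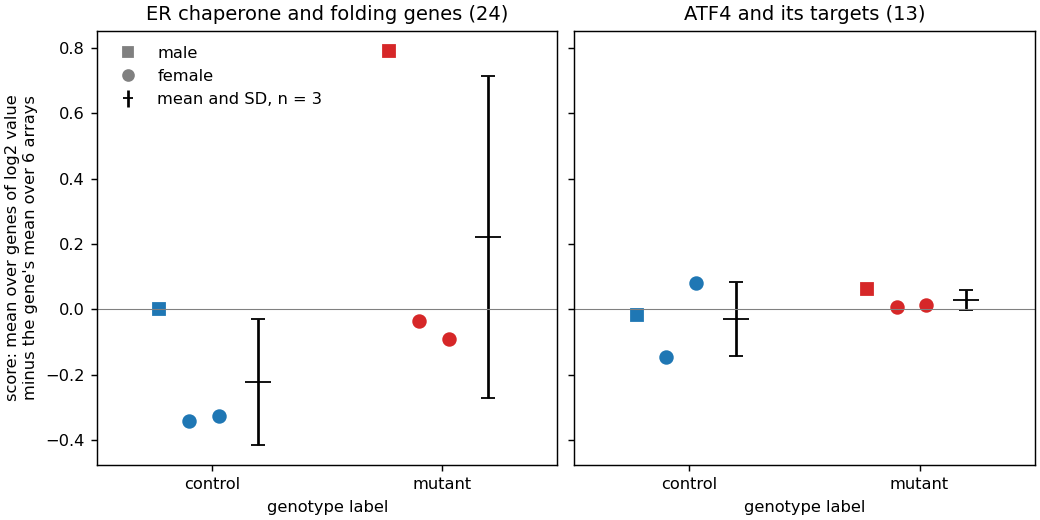
Score of each array (vertical axis, log2 units) for the ER genes and the ATF4 genes, by genotype label, with squares for males, circles for females and the mean and SD of 3 arrays beside them. ER scores reach 0.79 on mutant 1 and lie between -0.34 and 0.00 elsewhere, while ATF4 scores lie between -0.15 and 0.08 on all 6 arrays.

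The abundant chaperones of the ER lumen showed the pattern of a high male array. *Hspa5* encodes BiP, the Hsp70 chaperone that also holds the sensors inactive. It read 10.96, 10.50 and 10.48 on controls 1 to 3 and 11.94, 10.83 and 10.79 on mutants 1 to 3. The groups overlapped, since control 1 lay above mutants 2 and 3 (0.54 ± 0.31, adjusted p = 0.561). *Hsp90b1*, encoding the ER Hsp90 chaperone GRP94, read 10.72, 10.36 and 10.36 on the controls and 11.66, 10.44 and 10.71 on the mutants (0.46 ± 0.29, adjusted p = 0.617). Here too mutant 1 was far above the rest and control 1 exceeded the female mutants. *Hyou1*, a large Hsp70-type partner of BiP, differed by 0.53 ± 0.36. The lectin chaperones of glycoproteins, *Calr* and *Canx*, gave smaller differences of 0.26 ± 0.16 and 0.17 ± 0.11. *Manf* and *Creld2*, which encode small secreted or luminal proteins induced by ER stress, differed by 0.24 ± 0.33 and 0.72 ± 0.48.

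Disulfide isomerases, which form and rearrange disulfide bonds, ranged from 0.03 to 0.54. *Pdia6* read 9.89, 9.50 and 9.73 on the controls and 10.75, 9.90 and 10.11 on the mutants, and its groups were separate, though only just (0.54 ± 0.22, adjusted p = 0.370). *Pdia4* differed by 0.54 ± 0.34, and its dim second probe set by 0.13. *Pdia3* differed by 0.25 ± 0.16. *P4hb*, the founding disulfide isomerase and a subunit of collagen prolyl hydroxylase, was nearly level at 0.03 ± 0.11, with 12.24 on control 1 and 12.29 on mutant 1.

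J proteins, which drive the ATP cycle of BiP, and other partners of BiP held the widest spread among the members. *Dnajb9*, whose product also restrains the sensor of the *Ern1* arm, read 7.05, 6.34 and 6.66 on the controls and 8.96, 7.73 and 6.21 on the mutants. Its difference of 0.95 ± 0.60 was the largest of the 24, yet mutant 3 was the lowest of all 6 arrays (adjusted p = 0.613). *Dnajb11*, a soluble co-chaperone, read 8.92, 8.46 and 8.71 on the controls and 9.77, 8.84 and 9.08 on the mutants (0.53 ± 0.24, adjusted p = 0.431). Only control 1 lay above the lowest mutant. *Dnajc3*, encoding an inhibitor of eIF2 kinases that works as a co-chaperone in the lumen, differed by 0.55 ± 0.26. Its 2 probe sets held identical values. *Sdf2l1*, a partner of the ER J proteins, differed by 0.76 ± 0.49, with mutant 1 at 9.21 and the other arrays between 6.89 and 7.90.

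Degradation factors, which send misfolded proteins back to the cytosol for destruction, were among the members whose groups separated. *Edem1*, encoding a lectin that picks glycoproteins for degradation, read 8.68, 8.44 and 8.47 on the controls and 9.41, 9.02 and 8.81 on the mutants (0.55 ± 0.16, adjusted p = 0.204). *Sel1l*, the scaffold of the ER ubiquitin ligase, read 9.15, 8.86 and 8.83 against 9.80, 9.37 and 9.16 (0.49 ± 0.18, adjusted p = 0.298). All 3 mutants exceeded all 3 controls in both genes, in *Sel1l* by a narrow margin. *Herpud1*, a membrane adaptor of the same ligase, read 9.39, 9.36 and 9.27 on the controls, and 10.58, 9.78 and 9.40 on the mutants. Its groups were also just separate (0.59 ± 0.27, adjusted p = 0.436). *Syvn1*, the ligase itself, differed by 0.39 ± 0.37, with mutant 3 at 7.07 among the controls, which spanned 7.02 to 7.75.

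Among the sensors and *Xbp1*, the arm of *Ern1* gave the most even differences. *Xbp1* read 10.22, 9.87 and 9.96 on the controls and 10.63, 10.38 and 10.39 on the mutants, with separate groups (0.45 ± 0.13, adjusted p = 0.189). The male was the highest array of each genotype here too. *Ern1* read 7.23, 7.19 and 7.06 against 7.60, 7.42 and 7.33, again separate (0.29 ± 0.11, adjusted p = 0.324). *Atf6* differed by 0.19 ± 0.16 and *Eif2ak3* by 0.17 ± 0.28. On mutant 3, *Eif2ak3* read 6.70, below every control. *Sec61b*, a subunit of the channel through which proteins enter the ER, had the smallest p of the 24. It read 7.14, 7.25 and 7.07 on the controls and 7.75, 7.71 and 7.40 on the mutants (0.46 ± 0.12, adjusted p = 0.157), and its other 2 probe sets differed by 0.58 and 0.66. Over the ER list, 8 of 24 genes had all mutants above all controls (*Canx*, *Pdia6*, *Herpud1*, *Sel1l*, *Edem1*, *Xbp1*, *Ern1* and *Sec61b*), where 10.1% of all genes did and 8.0% had all mutants below. No ER gene had all mutants below. The margin was all but nil in *Canx* and narrow in *Pdia6*, *Herpud1* and *Sel1l*.

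The male array was high within each genotype. Mutant 1 was the highest of the 6 arrays in 24 of 24 genes, where it was the highest in 16.7% of all genes. Control 1 was the highest control in 22 of 24, against 39.1% of all genes. *Atf6* and *Sec61b* were the exceptions. Within the males, mutant 1 exceeded control 1 by a median of 0.79, and within the females the median difference was 0.29. The difference ran from 0.05 in *P4hb* to 1.91 in *Dnajb9* in the males, and from -0.08 in *Eif2ak3* to 0.47 in the females. *Xbp1* was the exception to the larger male difference, with 0.41 in the males and 0.47 in the females. In a fit of genotype and sex, chosen after the values were seen, the male arrays were higher in 24 of 24 genes by a median of 0.52, where 47.3% of all genes were higher in males. None of the 24 passed for sex in limma (lowest adjusted p = 0.573), with 17 at an unadjusted p under 0.05, where 1041 of all 19938 genes were. Of all genes, 0.00502% were called higher in males. An interaction of genotype and sex passed in none of the 37 members (lowest adjusted p = 0.628), against 0.0451% of all genes. At an unadjusted p under 0.05 there were 6 of the 24 ER genes and 2 of the 13 ATF4 genes, beside 1160 of all 19938 genes. With 1 male per genotype, sex cannot be told apart from other properties of those 2 mice.

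**Figure D3:**
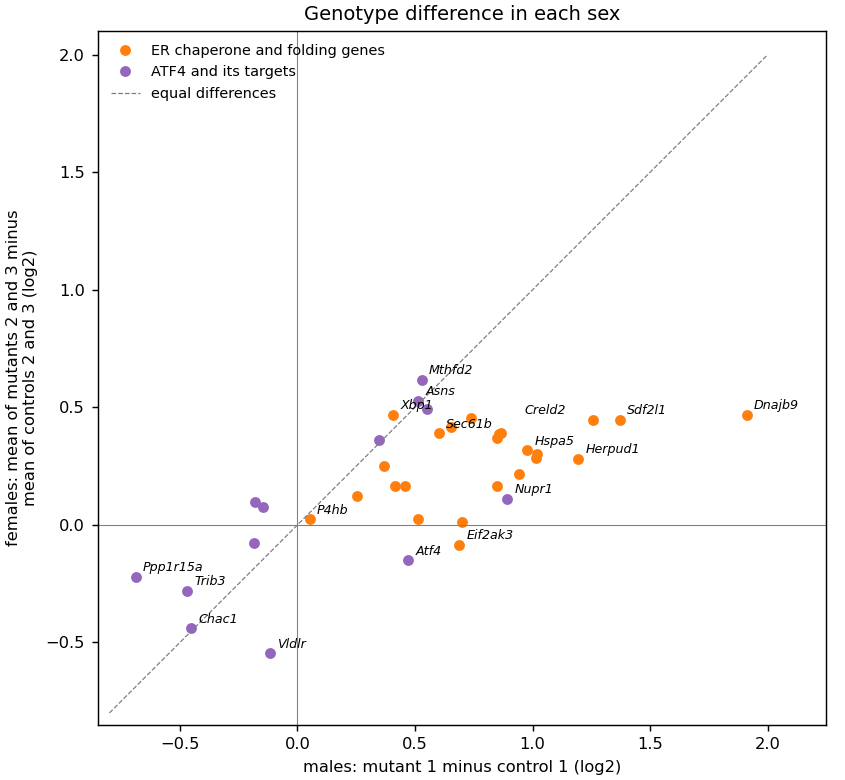
Difference of mutant and control in the males (horizontal axis, 1 array each) against that in the females (vertical axis, means of 2 arrays each), in log2 units, 1 point per gene and a dashed line of equality. ER genes lie right of the line apart from *Xbp1*, out to 1.91 for *Dnajb9*, while *Asns*, *Mthfd2* and *Chac1* lie close to it.

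Members with an ERSE or ERSE-II, 9 in number, differed by a median of 0.54, and the 12 with a window and neither element by 0.48. Mutant 1 was the highest array in all 9 and in all 12. Mutant 1 exceeded the mean of mutants 2 and 3 by a median of 0.99 in the first set and 0.52 in the second. Control 1 exceeded the mean of the female controls by 0.36 and 0.26. These are descriptions of a few promoters each, and the sets were not tested against each other.

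Several marker lists were read beside the ER score, since the high score sat on 1 array. Neutrophil markers scored 0.76 on mutant 1 and between -0.30 and -0.05 on the others. Of the 12 genes in that list, 11 averaged higher in the group labelled mutant, where 55.5% of all genes did. Their median difference was 0.15 against a mean of 0.40, so a few genes weighed heavily in the score. Mutant 1 exceeded the mean of mutants 2 and 3 by a median of 0.26 over the list. *S100a8*, which stressed keratinocytes also make, read 10.01 on mutant 1 and between 4.70 and 6.08 elsewhere. The defining neutrophil markers *Ly6g* and *Retnlg* stayed between 2.79 and 3.50 on all arrays, below 4.72, the 40th percentile of gene means. *Cxcr2*, a chemokine receptor gene of the same list, was brighter, at 7.97, 7.52 and 6.64 on the controls and 8.50, 8.10 and 7.84 on the mutants (0.77 ± 0.33, adjusted p = 0.394). The part of these genes in the ER result was not tested. Markers of cell types rich in ER chaperones scored -0.02 for plasma cells, 0.16 for mucous glands and -0.01 for pancreatic acini on mutant 1. Median control levels of these lists were 4.12, 3.96 and 4.04, under the same 4.72, so most of their genes were dim. The part of such cells in the ER result was not tested either. On the other arrays, plasma cell scores lay between -0.05 and 0.06 and mucous gland scores between -0.15 and 0.14. Acinar scores were -0.09, -0.03 and -0.07 on controls 1 to 3, and 0.01 and 0.19 on mutants 2 and 3. In the group labelled mutant, 5 of 12 plasma cell, 11 of 21 mucous gland and 13 of 14 acinar genes averaged higher. Of all genes, 55.5% did. The defining markers *Tnfrsf17*, *Muc5b*, *Agr2* and *Cpa1* of these lists lay between 2.89 and 4.44 on every array. *Mzb1* and *Cela1* reached 5.17 and 4.91, both on mutant 3. The fibroblast and smooth muscle score was 0.07, 0.63 and 0.52 on the controls and -0.44, -0.23 and -0.56 on the mutants, so it was lower where ER genes were higher between the groups and among the controls. It did not follow the ER score among the mutants, where mutant 3 was lowest in both. With that score as a covariate the ER median was -0.06. Then 10 of the 24 genes kept their direction above 0, beside 48% of all genes above 0. The median SE of the 24 rose from 0.25 to 0.52. The score itself separates the genotypes, so the covariate and the genotype can hardly be told apart in 6 arrays.

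The ATF4 group did not move as a block. Its score was -0.02, -0.15 and 0.08 on controls 1 to 3 and 0.06, 0.01 and 0.01 on mutants 1 to 3. The groups overlapped, and mutant 1 did not stand apart. Of 13 genes, 8 had a higher and 5 a lower mean on the arrays labelled mutant, with a median difference of 0.01, beside 0.02 over all genes. In 1 of them, *Asns*, the difference passed, beside 0.366% of all genes called higher. At an unadjusted p under 0.05 there were 3 higher and 1 lower, where 5.79% and 6.63% of all genes were. Groups were separate in 4 genes that were higher and 1 that was lower, against 10.1% and 8.0% of all genes.

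**Figure D4:**
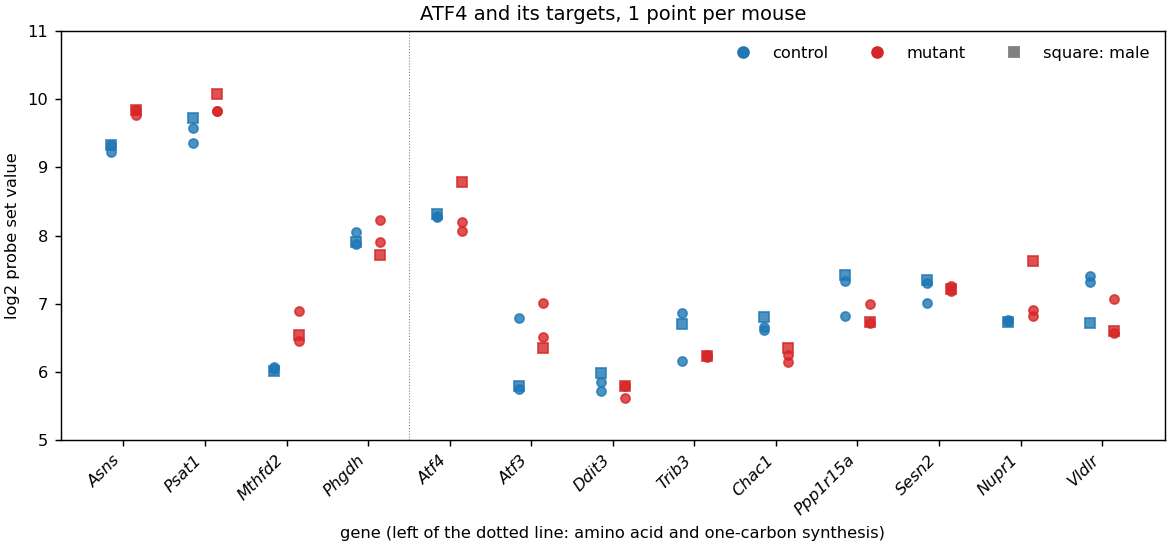
Log2 probe set value (vertical axis) of the 13 ATF4 genes on each array, controls in blue and arrays labelled mutant in red, squares for males. The mutant points lie above the control points in *Asns*, *Psat1*, *Mthfd2* and *Nupr1* and below them in *Chac1*, and the remaining genes overlap.

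Among the 4 synthesis genes, a grouping made after the values were seen, 1 rose, beside 0.366% of all genes. All mutants exceeded all controls in 3 of the 4, beside 10.1% of all genes. *Asns*, encoding asparagine synthetase, which makes asparagine from aspartate and glutamine, read 9.32, 9.23 and 9.33 on the controls and 9.84, 9.85 and 9.77 on the mutants. Each group was tight and the gap was wide, and the gene rose 1.44-fold (0.52 ± 0.09, adjusted p = 0.0462). The difference was 0.51 in the males and 0.53 in the females. The call lay close to the threshold and was lost with sex as a covariate (adjusted p = 0.0745) and with the replicate number as a block. It was also lost without any 1 of the 6 arrays, with differences of 0.49 to 0.55 and adjusted p between 0.0891 and 0.183. *Mthfd2*, encoding the mitochondrial folate enzyme that supplies one-carbon units, read 6.02, 6.07 and 6.05 on the controls and 6.55, 6.45 and 6.89 on the mutants (0.59 ± 0.13, adjusted p = 0.10). Its groups were well apart too. *Psat1*, for an aminotransferase of serine synthesis, read 9.73, 9.36 and 9.58 against 10.07, 9.83 and 9.83 (0.36 ± 0.13, adjusted p = 0.305). *Phgdh*, whose product catalyses the step before it, was level at 0.01 ± 0.14. Neither of these serine synthesis genes passed, and their differences were not tested against each other.

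Among *Atf4* and the 8 stress factors, 4 had a higher and 5 a lower mean on the arrays labelled mutant. Of all genes, 55.5% had a higher mean. None of these 9 passed, where 0.366% of all genes were called higher and 0.672% lower. *Atf4* read 8.32, 8.27 and 8.29 on the controls and 8.79, 8.19 and 8.07 on the mutants (0.06 ± 0.18, adjusted p = 0.938), high on mutant 1 and below all controls on mutants 2 and 3. ATF4 is controlled largely by translation, which the arrays do not read. *Ddit3*, encoding the death-linked factor CHOP, read 5.98, 5.85 and 5.71 against 5.79, 5.79 and 5.62 (-0.11 ± 0.11, adjusted p = 0.756), with overlapping groups. *Chac1*, for an enzyme that degrades glutathione and a marker of the ATF4 and CHOP branch, read 6.80, 6.65 and 6.61 on the controls and 6.35, 6.14 and 6.24 on the mutants. All mutants lay below all controls (-0.44 ± 0.10, adjusted p = 0.120). *Trib3*, an inhibitor that feeds back on ATF4, read 6.70, 6.16 and 6.87 against 6.23, 6.22 and 6.25 (-0.34 ± 0.18, adjusted p = 0.499). The mutants were alike and control 2 lay just under them. *Ppp1r15a*, encoding the phosphatase subunit GADD34 that reverses eIF2 phosphorylation, read 7.42, 6.82 and 7.33 against 6.73, 6.99 and 6.71 (-0.38 ± 0.17, adjusted p = 0.438).

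*Atf3*, a stress-induced transcription factor, read 5.79, 5.75 and 6.78 on the controls and 6.35, 6.51 and 7.01 on the mutants (0.51 ± 0.30, adjusted p = 0.565). Control 3 lay within the mutants. *Nupr1*, a small stress-induced chromatin protein, read 6.73, 6.76 and 6.75 against 7.63, 6.91 and 6.82 (0.37 ± 0.20, adjusted p = 0.534). The groups were separate, but most of the difference came from mutant 1, and without it the difference was 0.12. *Vldlr*, a lipoprotein receptor gene induced through ATF4, read 6.72, 7.32 and 7.40 against 6.60, 7.07 and 6.56 (-0.40 ± 0.21, adjusted p = 0.521). *Sesn2*, for a stress-induced inhibitor of mTORC1, was level at 0.00 ± 0.12. The 4 synthesis genes had a median difference of 0.44 and the other 9 of -0.11, and this grouping was made after the values were seen.

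Other genes of these pathways were read from lists that hold no member. Of 36 translocon and glycosylation genes, 34 had a higher mean on the arrays labelled mutant (median 0.36), beside 55.5% of all genes. None passed in limma, with 14 higher and 1 lower at an unadjusted p under 0.05, against 5.79% and 6.63% of all genes. Scores of the 36 were -0.05, -0.25 and -0.16 on the controls and 0.47, 0.06 and -0.06 on the mutants, high on mutant 1 as for the chaperones. *Sec63*, a J protein of the channel, read 8.59, 8.30 and 8.38 against 9.15, 8.92 and 8.82 (0.54 ± 0.13, adjusted p = 0.117). *Tram1*, a helper of the channel, differed by 0.49 ± 0.12 (adjusted p = 0.135). Against 55.5% and 0.366% of all genes, 22 of 26 further degradation genes were higher (median 0.21) and 1 rose. That was *Ube2j1*, an ER-anchored ubiquitin-conjugating enzyme, at 8.81, 8.53 and 8.80 on the controls and 9.74, 9.66 and 9.55 on the mutants (0.94 ± 0.11, adjusted p = 0.0162). Its groups were far apart, with a difference of 0.92 in the males and 0.94 in the females. The call was lost in 7 of 17 alternatives, among them the replicate block, the females alone and those without control 3, mutant 1 or mutant 2. The difference lay between 0.76 and 0.99 over all alternatives.

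Among 43 further partners and targets of ATF4, 25 were higher (58.1%, median 0.04), beside 55.5% of all genes. Of the 43, 2 rose and none fell, where 0.366% and 0.672% of all genes did. *Aldh1l2*, encoding the mitochondrial enzyme that oxidises formyl-tetrahydrofolate, rose most. It read 7.81, 7.71 and 7.42 on the controls and 9.35, 9.09 and 9.04 on the mutants (1.51 ± 0.14, adjusted p = 0.00717). The gap between the groups was wide, and the call held in 15 of 17 alternatives, including each of the 6 arrays left out in turn. It was lost with no moderation and with the fibroblast and smooth muscle score as a covariate. *Slc7a11*, the cystine transporter gene, read 8.99, 9.10 and 9.02 against 10.04, 9.99 and 9.73 (adjusted p = 0.0164). Its call was lost in 7 of 17 alternatives, among them the replicate block, the females alone and those without control 3, mutant 1 or mutant 2. Of 18 cytosolic aminoacyl-tRNA synthetases, many of them ATF4 targets, 15 were higher (median 0.18), beside 55.5% of all genes. None passed in limma, with 5 higher and none lower at an unadjusted p under 0.05, against 5.79% and 6.63% of all genes. In 9 the groups were separate, all of them higher, against 10.1% of all genes. *Rars*, for arginine, differed by 0.47 ± 0.09 (adjusted p = 0.0717) and *Iars*, for isoleucine, by 0.43 ± 0.11. The synthetase scores of -0.06, -0.09 and -0.10 on the controls and 0.15, 0.06 and 0.04 on the mutants did not overlap.

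Of 27 other sensors and regulators of the unfolded protein response, 20 were higher (median 0.13), beside 55.5% of all genes. None passed in limma, with 5 higher and 1 lower at an unadjusted p under 0.05, against 5.79% and 6.63% of all genes. Groups were separate in 8 that were higher and 2 that were lower, against 10.1% and 8.0% of all genes. *Map3k5*, a kinase downstream of the *Ern1* product, differed by 0.77 ± 0.14 and the deubiquitinase gene *Yod1* by -0.64 ± 0.12 (adjusted p = 0.0638 and 0.0662). Of 21 eIF2 kinases and initiation genes, 12 were higher (57.1%, median 0.04) and none passed. At an unadjusted p under 0.05 there were 4 higher and 1 lower, and groups were separate in 6 and 1. The shares of all genes are those just given. *Eif2b2*, a subunit of the exchange factor for eIF2, differed by 0.33 ± 0.10, and *Ppp1r15b*, the constitutive partner of *Ppp1r15a*, by 0.30 ± 0.10.

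**Figure D5:**
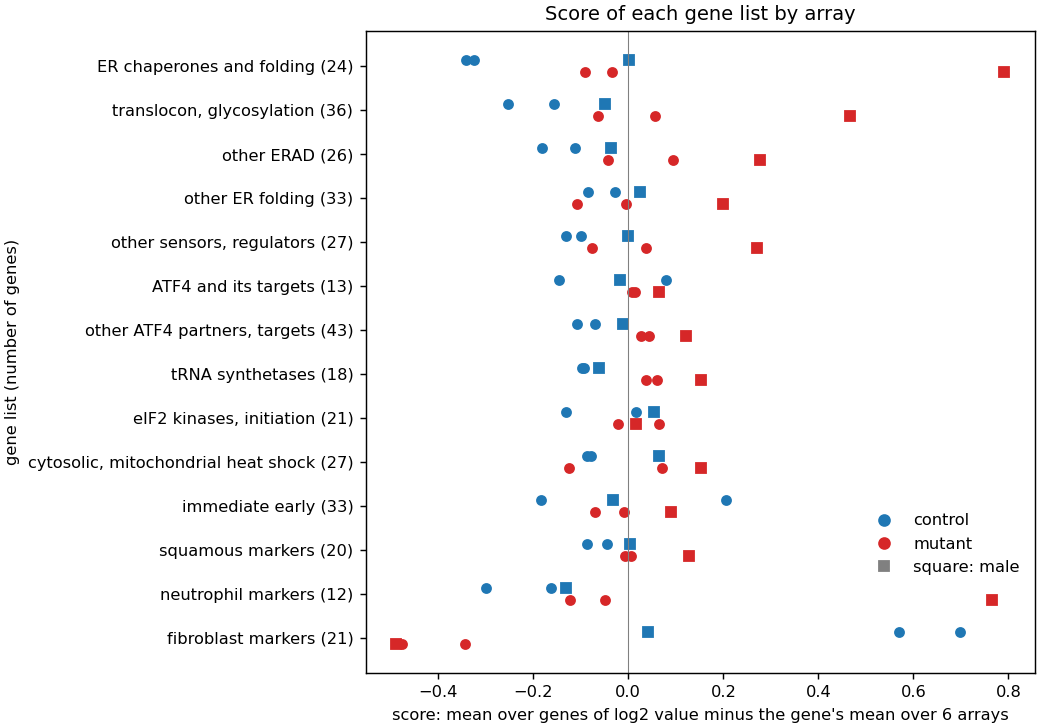
Score of each gene list (horizontal axis, log2 units) on the 6 arrays, controls in blue and arrays labelled mutant in red, squares for males, with the number of genes in parentheses. Mutant 1 lies far to the right for ER chaperones (0.79), translocon genes (0.47) and neutrophil markers (0.76), while the synthetase scores separate by genotype within a narrow range.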

How the data were processed

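Biotinylated cRNA was made from 100 ng of RNA per mouse with poly(T) priming (labels' protocols). Log2 values of 28853 probe sets on 6 arrays were deposited, the log scale being inferred from the values. Partek 6.4 is named in the submitters' processing notes. How the authors corrected background and normalized these log2 values is not stated in those sources. Arrays have no read depth, and their number limits the precision.

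A single gene was named for 21789 probe sets and several for 1621, while 5443 are unnamed here. Of those naming 1 gene, 21698 had an Entrez identifier found in RefSeq (GRCm38.p6), which updated the symbol. Differences were fitted across all 19938 genes with limma 3.58.1 in R 4.3.3 (genotype only, two-sided, 4 residual degrees of freedom, 7.58 after moderation), without filter or renormalization, and tested on simulated data. Scores have no test. Python 3.11.15 and matplotlib 3.10.9 served for the rest. Alternatives, 17 in number, covered normalization, filtering, covariates, weights and arrays left out.

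The members, lists and tests were chosen with earlier results of these data known. Full values are given for members that passed, the 8 of each list with the smallest p and 8 fixed genes (21 in all). *Calr*, *Canx* and other members are given by difference only. From other lists, up to 3 passing genes or the 2 with the smallest p are named. Across all genes, same-numbered arrays did not deviate together (correlations of -0.166, 0.09 and -0.1). With 3 arrays a group this cannot exclude a pairing, and in the ER genes both arrays numbered 1 were high. The replicate number was not used in the main fit, and a fit with it as a block is among the alternatives.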

Additional observations from a re-analysis of the deposited data

Results flagged for a closer look

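*Atf4* differed in opposite directions in the sexes on every array. Mutant 1 exceeded control 1 by 0.47, while both female mutants lay below both female controls, by 0.15 on average. The male difference exceeded the female one by 0.62 on the log2 scale, and this did not pass as an interaction in limma (adjusted p = 0.809). It rests on 1 male per genotype. Groups of 3 were too small to test for single outlying arrays.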

How the results depend on the processing

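None of the 24 ER genes passed under any of the 17 alternatives, and their median stayed between 0.15 and 0.60 except with the fibroblast and smooth muscle score as a covariate, where the median was -0.062 and the score difference -0.00456. The 1 call among the ATF4 genes, *Asns*, became 0 with median centring, the replicate block, sex as a covariate, no moderation, the stromal score and the females alone, and 0 to 0 with each array left out. It held with quantile normalization, without dim probe sets, with probe sets averaged, with an intensity trend and with array weights (adjusted p between 0.0304 and 0.0450). The replicate block gave *Asns* an adjusted p of 0.140 and also ended the calls of *Ube2j1*, *Slc7a11*, *Fkbp9* and *Rcn3*. No moderation and the stromal score each ended all of these calls and that of *Aldh1l2*. *Map3k5*, *Yod1* and *Rars* passed with array weights (adjusted p = 0.0356, 0.0258 and 0.0401), *Yod1* also with quantile normalization and *Rars* with an intensity trend.

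Directions that turned belong to differences that never passed. With the stromal score they were *Hspa5* (-0.10), *Hsp90b1* (-0.22), *Calr* (-0.14), *Canx* (-0.020), *Pdia3* (-0.22), *Pdia4* (-0.31), *Pdia6* (-0.023), *P4hb* (-0.11), *Dnajb11* (-0.12), *Dnajc3* (-0.15), *Sdf2l1* (-0.81), *Hyou1* (-0.53), *Manf* (-0.34), *Creld2* (-0.57), *Psat1* (-0.0094), *Phgdh* (-0.10), *Sesn2* (-0.24), *Vldlr* (0.65) and *Hspd1* (-0.18). Without mutant 1 they were *P4hb* (-0.033), *Manf* (-0.16), *Syvn1* (-0.017), *Eif2ak3* (-0.12) and *Atf4* (-0.16), and in the females alone *Eif2ak3* (-0.084) and *Atf4* (-0.15). With array weights, *Phgdh* read -0.075 and *Sesn2* -0.037. *Phgdh* read -0.016, -0.030 and -0.13 without control 1, control 2 and mutant 3. *Sesn2* read -0.11 and -0.021 without control 2 and mutant 2, and *P4hb* -0.0093 without control 3. The highest values with an array left out were 0.095 (*P4hb*), 0.49 (*Manf*), 0.75 (*Syvn1*), 0.51 (*Eif2ak3*), 0.20 (*Atf4*), 0.12 (*Phgdh*) and 0.069 (*Sesn2*). The cause was not tested. With 3 arrays a group, differences of about 0.5 are mostly under what the fit can call, so no member is shown to be unchanged.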

Other observations

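Of 27 cytosolic and mitochondrial heat shock genes, 19 had a higher mean on the arrays labelled mutant (median 0.11), beside 55.5% of all genes. None passed in limma, with 1 higher at an unadjusted p under 0.05, where 5.79% of all genes were. Differences of the 27 ran from -0.78 to 0.46, and mutant 1 was the highest array in 5 of them, beside 16.7% of all genes. *Hspa4*, a cytosolic nucleotide exchange factor of Hsp70, differed by 0.20 ± 0.09, and the mitochondrial chaperonin gene *Hspd1* by 0.25 ± 0.11. Of 33 immediate early genes, 17 were higher (51.5%, median 0.02), beside 55.5% of all genes. None passed in limma, with 3 higher and 2 lower at an unadjusted p under 0.05, against 5.79% and 6.63% of all genes. *Ier3* differed by 0.89 ± 0.23 and *Gadd45a* by -0.61 ± 0.16.

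Some ER folding genes outside the members ran the other way. Of 33 such genes 24 were higher (median 0.14), none rose and 2 fell, beside 55.5%, 0.366% and 0.672% of all genes. *Fkbp9*, an ER prolyl isomerase gene, read 7.85, 7.87 and 7.93 on the controls and 7.27, 7.08 and 7.03 on the mutants (-0.76 ± 0.10, adjusted p = 0.0189). *Rcn3*, encoding a calcium-binding ER protein, fell by 0.64 ± 0.10 (adjusted p = 0.0352). *Fkbp9* kept its call in 9 of 17 alternatives and *Rcn3* in 4. Fibroblast markers were lower on the same arrays, with *Col1a2* at -1.30 ± 0.19. With the fibroblast and smooth muscle score as a covariate the differences were -0.71 for *Fkbp9* and -0.55 for *Rcn3*, and neither passed. Only 3 of all 19938 genes passed in that fit, so the loss of these calls is not informative. The part of fibroblasts in these differences was not tested.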
